A study of Mus musculus with 8 samples.

Results

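The 6 keratins described here, Krt4, Krt7, Krt8, Krt13, Krt18 and Krt19, are those of simple epithelia, of the periderm and of mucosal linings. They were chosen by name from the 23432 genes of the count files, 52 of which are keratins. The study asked what the histone acetyltransferase MOF (gene Kat8) and KANSL1, a subunit of one of its complexes, do in mouse skin epithelium. RNA-seq libraries of polyA RNA came from 4 groups of 2 libraries each. At E16.5, Krt14-H2BGFP+ cells were sorted from dorsal skin of MOF fl/fl Krt14-Cre embryos (MOF cKO) and of controls. At P0.5, the epidermis was separated with Dispase and lysed from Kansl1 fl/fl Krt14-Cre newborns (Kansl1 cKO, with a coding exon of Kansl1 removed) and from controls. The labels say only "Control" for the controls of both experiments, and the study describes its controls as wildtype or heterozygous littermates, so a heterozygous control may itself carry Cre. Krt14-Cre deletes only in cells that have expressed Krt14, and the GFP gate at E16.5 selects cells that carry the Krt14-driven reporter, while the P0.5 libraries were not sorted. Nothing says whether a library came from 1 animal or a pool, and p-values here measure the spread between these libraries.

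Keratins form filaments only as pairs of a type II and a type I protein. Krt8 (type II) and Krt18 (type I) are the pair of simple, single-layered epithelia, often with Krt7 (type II) and Krt19 (type I), while Krt4 (type II) and Krt13 (type I) are the pair of the layers above the basal cells in oral and oesophageal mucosa. In skin, the keratins of simple epithelia are known from the periderm, the flat cell layer that covers the embryonic epidermis and is shed before birth, and from Merkel cells, the touch-sensing cells of the epidermis, which also express Krt20.

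The type II genes lie together on chromosome 15 with Krt18, and the other type I genes on chromosome 11. In GENCODE vM21 (GRCm38, the build of mm10), all 6 are protein coding. The annotation behind the counts is not given, so the exons counted may differ from those of GENCODE. The lengths used for levels per kilobase may then differ too. Among the 6 this matters most for Krt7, whose exons sum to 7049 bases against 4094 for its longest transcript. Krt7 is on the plus strand at chr15:101411043-101430313, Krt4 on the minus strand at chr15:101918535-101924735 and Krt8 on the minus strand at chr15:101996698-102004482. Krt18 is on the plus strand at chr15:102028180-102032027, 23698 bases from Krt8 and pointing away from it. Krt13 (chr11:100117327-100121566) and Krt19 (chr11:100140810-100148665) are both on the minus strand of chromosome 11, with Krt15 between them. Of all windows of 100 bases along the Krt8 transcript, 16.9% also occur in its pseudogene Krt8-ps, so reads from there may be lost or shared. For the other 5 members this share was 0%. Krt7 overlaps the antisense gene Gm671 and Krt8 the non-coding Gm36026 on the other strand. The strand setting of the counting is not given in the sources used here, and reads of such a partner cannot be told apart from those of the keratin without it.

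The starts of Krt8 and Krt18 are shown because these partners in the filament, neighbours on the chromosome, parted in the MOF cKO libraries, and that of Krt7 as the other well-counted type II member. RefSeq windows (GRCm38.p6) from 250 bases before to 50 after the annotated start were found for 4 of the 6 members, namely Krt7, Krt8, Krt13 and Krt18. Printed 5′ to 3′ on the strand of the gene, at chr15:102004293-102004592 (minus) for Krt8, chr15:102027966-102028265 (plus) for Krt18 and chr15:101412153-101412452 (plus) for Krt7, they read as follows, with motif matches in capitals.
Krt8: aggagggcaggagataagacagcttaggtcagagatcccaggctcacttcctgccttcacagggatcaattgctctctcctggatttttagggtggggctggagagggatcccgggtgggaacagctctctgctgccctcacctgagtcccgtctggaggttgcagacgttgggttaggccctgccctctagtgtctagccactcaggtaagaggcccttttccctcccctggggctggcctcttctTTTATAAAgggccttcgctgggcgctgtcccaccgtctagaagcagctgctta
Krt18: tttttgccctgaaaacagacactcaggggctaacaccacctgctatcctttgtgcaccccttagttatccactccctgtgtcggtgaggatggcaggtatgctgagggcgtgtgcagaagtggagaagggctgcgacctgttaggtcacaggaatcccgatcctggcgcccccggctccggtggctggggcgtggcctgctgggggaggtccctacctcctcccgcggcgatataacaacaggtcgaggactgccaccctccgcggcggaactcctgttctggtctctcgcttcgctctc
Krt7: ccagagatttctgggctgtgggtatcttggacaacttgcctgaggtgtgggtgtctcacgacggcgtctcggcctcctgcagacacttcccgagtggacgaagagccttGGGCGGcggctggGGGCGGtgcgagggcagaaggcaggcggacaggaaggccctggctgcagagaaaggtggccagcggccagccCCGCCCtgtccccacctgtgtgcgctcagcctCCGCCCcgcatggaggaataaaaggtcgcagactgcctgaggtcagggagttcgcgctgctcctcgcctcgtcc
The motifs searched on both strands were the TATA box TATAAA, the GC box GGGCGG, the AP1 site TGACTCA, the Ets core CCGGAA and the grainyhead motif AACCGG. For each printed gene the RefSeq start differs from the start of the GENCODE gene given above. The capitals in Krt8 are matches to TATAAA on both strands, 2 that overlap at the annotated RefSeq start. Those in Krt7 are 4 GC boxes, and the Krt18 window holds none of the 5 motifs. Krt13 has windows at 2 annotated starts, not printed, of which that at chr11:100121517-100121816 (minus) holds none of the motifs and that at chr11:100120528-100120827 (minus) holds 2 AP1 sites and 1 grainyhead motif. Among 32851 such windows of all genes, 13.6% hold the TATA box, 35.7% the GC box, 5.20% the AP1 site, 14.9% the Ets core and 6.83% the grainyhead motif. The Krt8 window holds 6 CpG dinucleotides, the Krt18 window 17 and the Krt7 window 21, against a median of 7 over all windows. These letters describe the windows only, and no factor binding was measured here.

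Counts on genes ran from 22484018 to 27561688 per E16.5 library and from 9108709 to 19774643 per P0.5 library. Kat8 stood at 14.4 and 14.7 CPM (counts scaled to library size) in the E16.5 controls and at 12.4 and 13.9 CPM in the MOF cKO libraries (log2 fold change -0.14, SE 0.179, adjusted p = 0.554 by edgeR's quasi-likelihood test). Kansl1 stood at 40.7 and 48.2 CPM in the P0.5 controls and at 31.4 and 30.6 CPM in the Kansl1 cKO libraries (log2 fold change -0.52, SE 0.167, adjusted p = 0.242). Neither passed the test, and because a gene-level count also takes reads from the exons that are kept, these counts do not check the genotype labels. The 9 keratinocyte markers were all detected in every library and summed to between 22090 and 39011 CPM. The P0.5 control replicate 1 stood apart, with 222 CPM summed over 5 muscle markers against 1.03 to 2.65 CPM in the other P0.5 libraries, and with 1116 CPM of the stress keratin Krt16 against 132 CPM in the other P0.5 control. MOF cKO replicate 2 stood apart as well, with 14.7 CPM of muscle markers against 1.19 to 1.41 CPM in the other E16.5 libraries. That library also had 22.3 CPM of endothelial markers against 6.16 to 10.8 CPM, and 64.8 CPM of melanocyte markers against at most 44.5 CPM. The E16.5 controls differed from each other too. Control replicate 2 had 44.5 CPM of melanocyte markers against 17.5 CPM in control replicate 1. Its macrophage markers were at 44.6 against 19.8 CPM and its fibroblast markers at 1555 against 918 CPM. Fibroblast markers were present in every library despite the sort, at 918 to 2155 CPM in the sorted E16.5 libraries and at 739 to 1751 CPM in the unsorted P0.5 libraries, each scaled within its experiment.

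In the MOF cKO libraries Krt8 fell 5.55-fold while its partner Krt18 was not lower, so that per kilobase Krt18 RNA stood above Krt8 RNA. Krt7 was 2.096-fold higher, short of the threshold, and the 3 scarce members, Krt19, Krt4 and Krt13, did not pass the test. Calls needed an adjusted p no higher than 0.01 with more than a 1.5-fold change, from edgeR's quasi-likelihood test with Benjamini-Hochberg adjustment over 13956 genes. Over all genes 1395 were called higher and 1338 lower, or 769 and 2743 with library size alone as the scaling. Of the 6 members, 1 was called, against a background of 19.6% of all tested genes. The members' median log2 fold change was -0.37, beside -0.02 over all genes tested.

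Krt8 was counted 790 and 693 times in the E16.5 controls and 68 and 134 times in the MOF cKO libraries. Scaled to CPM, these are 25.8 and 25.0 in the controls and 3.41 and 5.67 in the MOF cKO libraries. Both controls were close to each other and far above both MOF cKO libraries. The log2 fold change was -2.47 (SE 0.258, 95% interval -3.08 to -1.87, adjusted p = 0.000762, edgeR). Of the 1338 genes called lower, 166 fell further.

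Krt18 was counted 195 and 191 times in the controls and 200 and 185 times in the MOF cKO libraries. These are 6.36 and 6.90 CPM in the controls and 10.04 and 7.83 CPM in the MOF cKO libraries. Both MOF cKO libraries lay above both controls on the CPM scale, and the counts themselves overlapped. The log2 fold change was 0.43 (SE 0.258, 95% interval -0.17 to 1.03, adjusted p = 0.224, edgeR), an interval that leaves out any fall the size of that of Krt8.

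The ratio of Krt8 to Krt18 sets the partners against each other within a library, so it does not depend on how the libraries were scaled. Taken as levels per kilobase of exon, it was 2.97 and 2.66 in the E16.5 controls and 0.250 and 0.532 in the MOF cKO libraries. The groups did not overlap, and the ratio, averaged on the log2 scale, was 7.73-fold lower in the MOF cKO libraries (log2 difference -2.95). With 2 libraries against 2, the exact two-sided permutation test cannot go below p = 0.333, which is the value it gave.

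**Figure D1:**
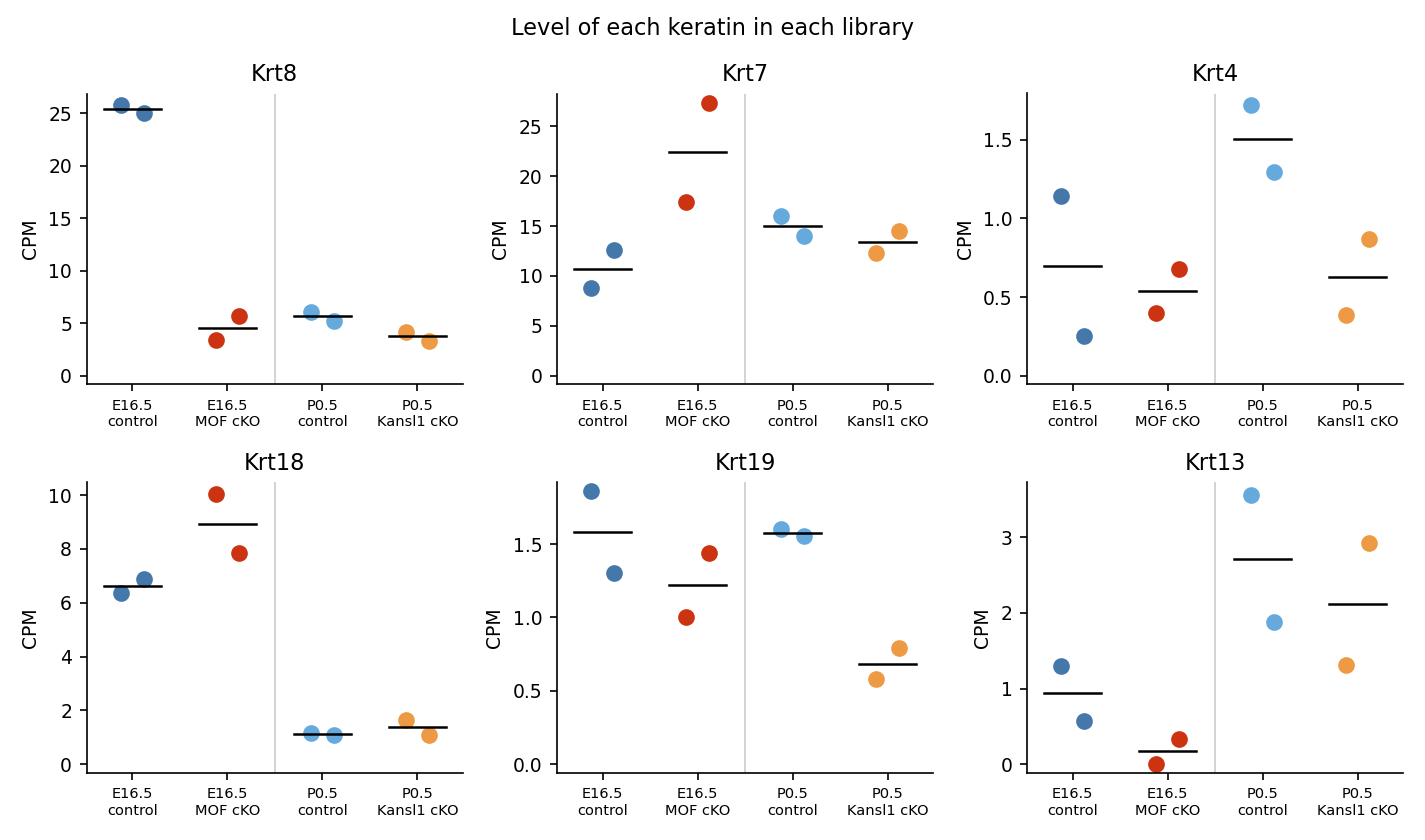
Level of each of the 6 keratins in each library (dots, CPM scaled within each experiment, linear axis) with the mean of the 2 libraries (bar); the grey line parts the E16.5 from the P0.5 experiment. Krt8 stood at 25.8 and 25.0 CPM in the E16.5 controls and at 3.41 and 5.67 CPM in the MOF cKO libraries, while Krt18 lay between 6.36 and 10.04 CPM in these 4 libraries.

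Krt7, the other type II keratin of simple epithelia, was counted 270 and 349 times in the controls and 347 and 646 times in the MOF cKO libraries. These are 8.81 and 12.6 CPM in the controls and 17.4 and 27.4 CPM in the MOF cKO libraries. Both MOF cKO libraries lay above both controls, and they differed from each other more than the controls did. Here the log2 fold change was 1.07 (SE 0.273, 95% interval 0.43 to 1.71, adjusted p = 0.0193, edgeR), past a threshold of 0.05 but not of 0.01. Krt7 was called by DESeq2 (adjusted p = 0.00156) and without E16.5 control replicate 2 (adjusted p = 0.000831) or without MOF cKO replicate 1 (adjusted p = 0.00463). It was not called without E16.5 control replicate 1 (adjusted p = 0.0274) or without MOF cKO replicate 2, the library with the muscle and endothelial markers (log2 fold change 0.70, adjusted p = 0.0679).

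Krt19, the small type I keratin that often accompanies Krt7, had 57 and 36 counts in the controls against 20 and 34 in the MOF cKO libraries, or 1.86 and 1.30 CPM against 1.004 and 1.44 CPM. The groups overlapped, and the log2 fold change of -0.37 (SE 0.592, 95% interval -1.75 to 1.02, adjusted p = 0.653) left room for a change in either direction. The ratio of Krt7 to Krt19 per kilobase was 1.25 and 2.55 in the controls against 4.57 and 5 in the MOF cKO libraries, with the same smallest possible p of 0.333.

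The mucosal pair was near the limit of detection at E16.5. Krt13 had 40 and 16 counts in the controls and 0 and 8 in the MOF cKO libraries, or 1.30 and 0.578 CPM against 0 and 0.339 CPM. A count of 0 in MOF cKO replicate 1 allows a level of up to 0.151 CPM, that of 3 counts, by counting error alone. The log2 fold change of -2.39 (SE 1.21, 95% interval -5.22 to 0.44, adjusted p = 0.157) did not pass the test, and it ranged from -7.63 to -1.47 when 1 library was left out. Krt4 had 35 and 7 counts in the controls and 8 and 16 in the MOF cKO libraries, or 1.14 and 0.253 CPM against 0.402 and 0.678 CPM. The controls lay on both sides of the MOF cKO libraries, and the fitted difference of -0.37 (SE 0.921, adjusted p = 0.779) became 1.08 without E16.5 control replicate 1. That library had the higher level of Krt4, Krt13 and Krt19 among the controls. The groups did not overlap for 4 of the 6 members, Krt7, Krt8, Krt13 and Krt18, where 72.6% of all tested genes did not overlap.

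**Figure D2:**
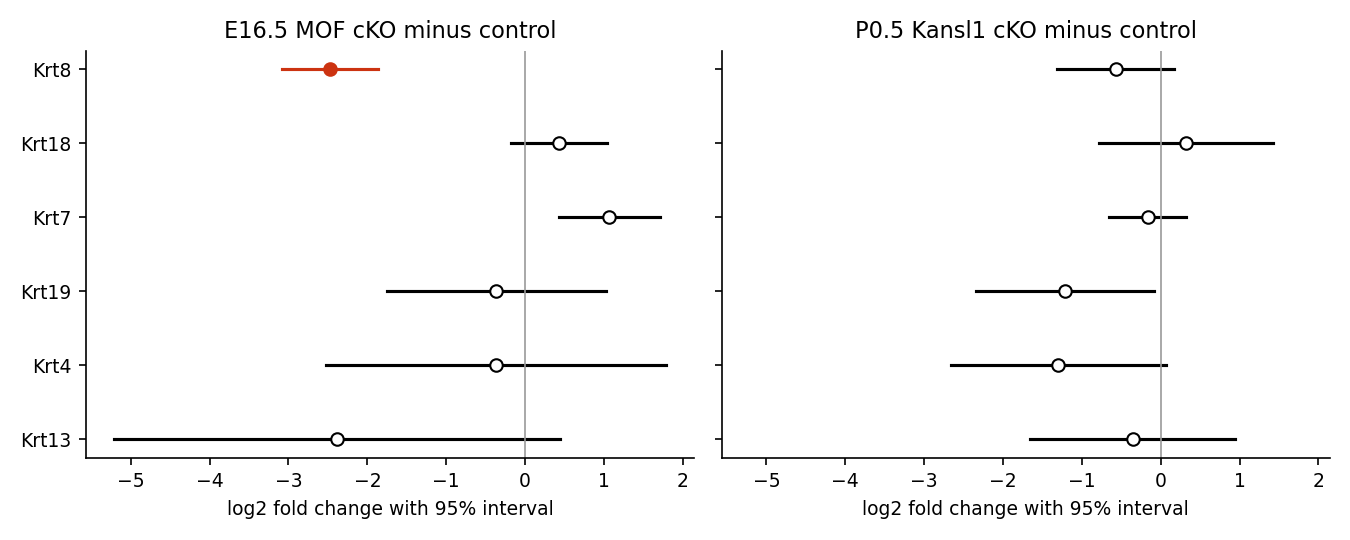
Log2 fold change of each keratin with its 95% interval from edgeR's quasi-likelihood fit, for MOF cKO minus control at E16.5 (left) and Kansl1 cKO minus control at P0.5 (right); a filled red dot marks a called gene. Krt8 at -2.47 in the left panel is called, and the intervals of Krt13, Krt4 and Krt19 are wider than those of Krt7, Krt8 and Krt18 in that panel.

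The genes that mark Merkel cells were lower beside Krt8, most of them short of the threshold. Of 13 Merkel cell markers tested, 13 had a negative log2 fold change in the MOF cKO libraries and 1 was called lower, with a median of -1.89 beside -0.02 over all genes. Of all tested genes 19.6% were called in either direction by edgeR. DESeq2 called 3 of the markers lower. The count was 0 without E16.5 control replicate 2 and 6 without MOF cKO replicate 2, and the median was -1.42 without MOF cKO replicate 1 and -3.48 without MOF cKO replicate 2. Their summed level was 41.0 to 43.4 CPM in the E16.5 controls and 14.6 to 17.2 CPM in the MOF cKO libraries. Cplx2, a regulator of vesicle release, was the marker called (log2 fold change -1.89, SE 0.327, adjusted p = 0.00428). Krt20, the keratin that marks Merkel cells in skin, was at 1.76 and 1.66 CPM in the controls and at 0 and 0.169 CPM in the MOF cKO libraries, a difference of -4.18 (SE 1.07, adjusted p = 0.0191). Atoh1, the transcription factor needed to make Merkel cells, differed by -2.29 (adjusted p = 0.0346), and Pou4f3 by -2.48 (adjusted p = 0.0242). In these bulk libraries, fewer cells of a type and less RNA per cell cannot be told apart. Krt18, which Merkel cells also express, was not lower. Counts of bulk libraries cannot be divided among cell types, and the part of Merkel cell content in the values of Krt8 and Krt18 was not tested. The 5 mesothelial markers, a lining that expresses Krt8, Krt18 and Krt19, summed to at most 1.06 CPM in any library.

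**Figure D3:**
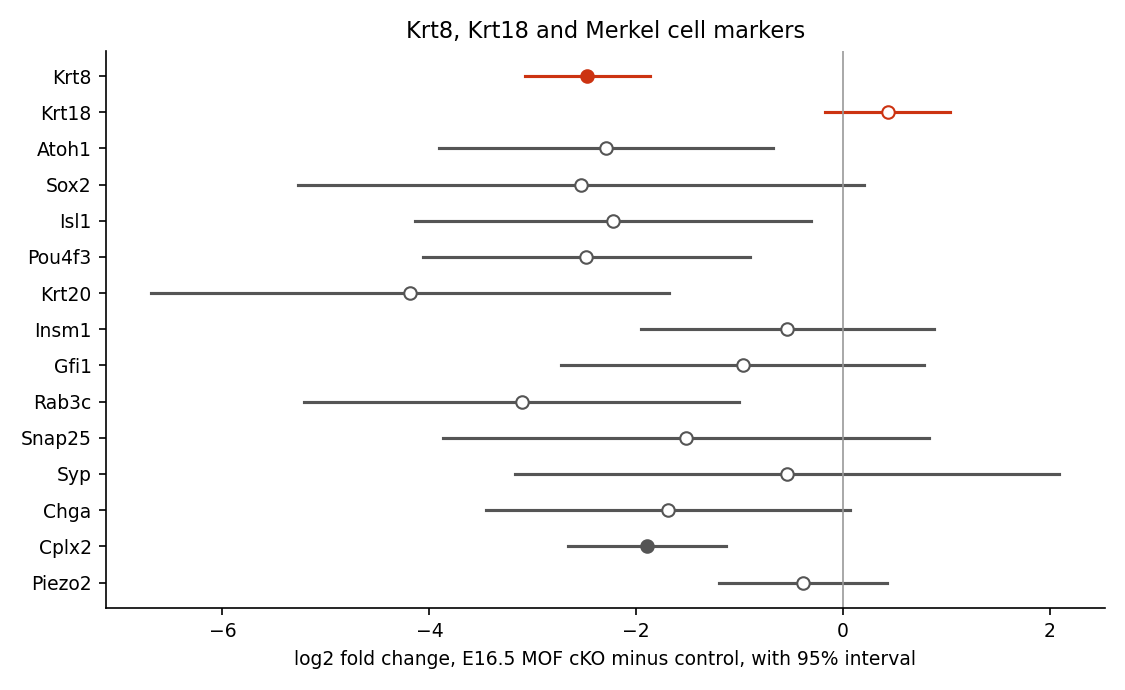
Log2 fold change with 95% interval for MOF cKO minus control at E16.5 (edgeR) of Krt8 and Krt18 (red) and of the 13 Merkel cell markers (grey); filled dots are called genes. All 13 markers lie below 0 with Krt8 at -2.47, and Krt18 lies at 0.43.

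Markers of other cell types also differed in the MOF cKO libraries, where 19.6% of all tested genes were called in either direction. Of 8 macrophage markers, 6 were called higher, and their summed level went from 19.8 to 44.6 CPM in the controls to 94.4 to 124.6 CPM in the MOF cKO libraries. Fibroblast markers summed to 918 to 1555 CPM in the controls and 1547 to 2155 CPM in the MOF cKO libraries. Of 8 tested, 7 were higher and 1 lower, with 0 called by edgeR and 8 at an unadjusted p under 0.05. DESeq2 called 2 higher, and with library size alone 1 was called lower and 0 higher. Of 5 endothelial markers 1 was called higher, Pecam1 (1.74, adjusted p = 0.00892), and 0 were called without MOF cKO replicate 2 or without E16.5 control replicate 1. The part of these cell types in the values of Krt7 and Krt18 was not tested.

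A few keratins carried most of the keratin level. Among 51 keratins ranked by level per kilobase in the E16.5 controls, Krt8 had rank 9, Krt18 rank 12, Krt7 rank 15, Krt19 rank 17, Krt13 rank 24 and Krt4 rank 31. Summed per kilobase over 51 keratins, the members made up 0.108% of the keratin level in each E16.5 control and 0.0581% and 0.0535% in the MOF cKO libraries. Krt8 made up 62.4% and 62.3% of the members' level in the E16.5 controls and 14.6% and 21.5% in the MOF cKO libraries. The order of the levels per kilobase in the E16.5 controls was Krt8 at 11.95 ± 0.189 (SD, n = 2), Krt18 at 4.25 ± 0.264, Krt7 at 1.40 ± 0.358, Krt19 at 0.784 ± 0.193, Krt13 at 0.476 ± 0.258 and Krt4 at 0.301 ± 0.270 CPM per kilobase. The ranges of Krt19 and Krt13, and of Krt13 and Krt4, overlapped. In the MOF cKO libraries Krt18 led at 5.74 ± 1.005, above Krt7 at 2.93 ± 0.918 and Krt8 at 2.14 ± 0.752 CPM per kilobase, whose ranges overlapped. With the longest transcript as the length in place of all exons, Krt7 was at 5.04 ± 1.58 CPM per kilobase there, clear of Krt8 and overlapping Krt18, and in the E16.5 controls the ranges of Krt19 and Krt13 no longer overlapped.

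Of 34 keratins tested in the MOF comparison, 5 were called higher and 3 lower, where 19.6% of all tested genes were called. Krt8 was the member among the 3 lower, with Krt15 (log2 fold change -1.26, SE 0.130, adjusted p = 0.000745), a keratin of basal and hair follicle cells that lies between Krt13 and Krt19, and Krt79 (-1.72, SE 0.288, adjusted p = 0.0038), which marks cells of the upper hair follicle and lies 4597 bases from Krt4. The 5 higher were Krt1 (1.67) and Krt10 (1.12), the pair of the suprabasal epidermis, and the stress keratins Krt6a (6.52), Krt6b (8.39) and Krt16 (5.47). Of the keratin neighbours of Krt8 and Krt7 on chromosome 15, Krt78 (-0.21) and Krt80 (0.23) did not pass the test.

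**Figure D4:**
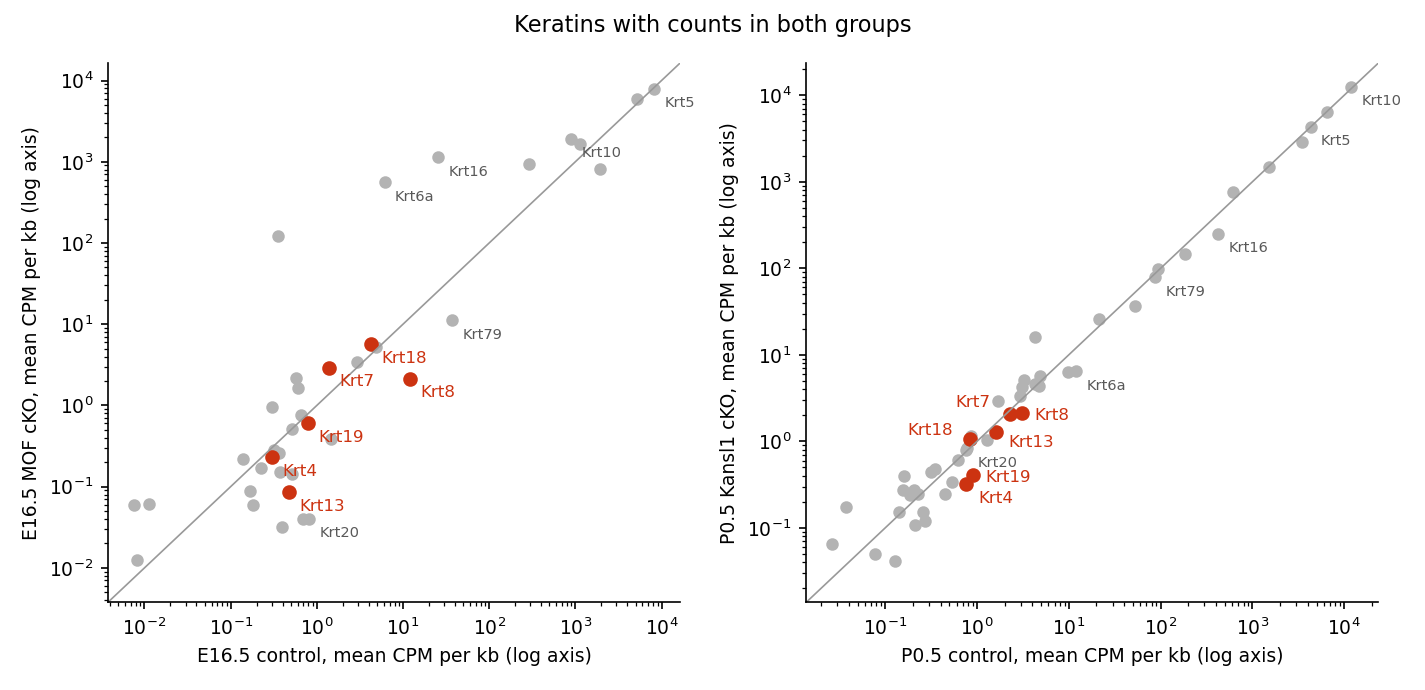
Mean level per kilobase (CPM scaled over all libraries, log axes) of every keratin with counts in both groups, control against MOF cKO at E16.5 (left) and control against Kansl1 cKO at P0.5 (right); red dots are the 6 members and the diagonal marks equal levels. Krt8 lies below the diagonal on the left, at 11.95 against 2.14, and Krt7 above it, at 1.40 against 2.93.

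Among other genes of these epithelia, those called were higher, where 19.6% of all tested genes were called in either direction. Of 10 periderm genes, 3 were called higher in the MOF cKO libraries and 0 lower by edgeR, with a median log2 fold change of 0.48. Those called were Cldn4, a tight junction protein (1.505, SE 0.122), Sfn, the 14-3-3 protein of stratified epithelia (1.23, SE 0.113), and Grhl3, a grainyhead factor of surface epithelium (1.15, SE 0.143). Of 11 genes of simple epithelia, 5 were called higher, among them Rab25, an epithelial GTPase of vesicle traffic (1.54, SE 0.123), and Esrp2, an epithelial splicing factor (0.99, SE 0.113). The median of that list was 0.15, and it was -0.16 with library size alone as the scaling, which called 2 of its genes higher and moved the median of all genes to -0.32. With that scaling 3 periderm genes were called higher and 1 lower. Of 5 mucosal genes tested by edgeR, 0 were called and 0 had an unadjusted p under 0.05. DESeq2 tested 8 and called 0. Scel differed most surely, by 0.30 (SE 0.160, adjusted p = 0.178).

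The proteins that hold keratin filaments were also measured. Of 14 such partners, 11 were higher and 3 lower, with a median of 0.55. Of all tested genes 19.6% were called in either direction, and of the partners 4 were called higher and 0 lower. These were Plec, the linker plectin (0.92), Jup, the desmosomal plakoglobin (0.68), Pkp2, a plakophilin of simple epithelia and heart (2.65), and Fam83h, which binds keratins (0.80). With library size alone 1 partner was called higher and 2 lower, and at an adjusted p of 0.05, 5 were called higher and 1 lower. Of 12 tested transcription factors of epithelial identity, 4 were called higher. These were Ets1 (2.66), Ehf (2.20), Grhl1 (0.98) and Tfap2a (0.60). Trp63, the master factor of stratified epithelium, was lower by 0.57 with an adjusted p of 0.0087 (edgeR), short of the 1.5-fold limit. With library size alone or upper-quartile factors 3 of these factors were called higher, without Tfap2a, and Trp63 was called lower (-0.88 and -0.64).

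In the Kansl1 cKO libraries none of the 6 members was called. By edgeR 0 of 13031 genes were called (0%), the smallest adjusted p was 0.110, and 2045 genes had an unadjusted p under 0.05, Krt19 being the 1 member among them. DESeq2 called 35 genes higher and 55 lower, with 0 members. The members' median log2 fold change was -0.46, beside 0.01 over all genes tested, and 5 of the 6 were lower.

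Krt19 had 14 and 24 counts in the P0.5 controls and 12 and 10 in the Kansl1 cKO libraries. On the CPM scale it was at 1.60 and 1.55 in the controls and at 0.581 and 0.790 in the Kansl1 cKO libraries. Both Kansl1 cKO libraries were lower, and the log2 fold change was -1.22 (SE 0.476, 95% interval -2.35 to -0.08, adjusted p = 0.298, edgeR). Krt4 had 15 and 20 counts in the controls and 8 and 11 in the Kansl1 cKO libraries, or 1.72 and 1.29 CPM against 0.388 and 0.869 CPM, and the log2 fold change was -1.30 (SE 0.573, 95% interval -2.66 to 0.07, adjusted p = 0.338, edgeR). Both Kansl1 cKO libraries lay below both controls for Krt4 as well.

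Krt8 had 53 and 81 counts in the P0.5 controls and 87 and 42 in the Kansl1 cKO libraries, or 6.07 and 5.24 CPM against 4.21 and 3.32 CPM. The groups did not overlap, and the log2 fold change of -0.57 (SE 0.312, 95% interval -1.31 to 0.17, adjusted p = 0.426) did not reach a fall the size of that in the MOF cKO libraries anywhere in its interval. The groups did not overlap for 3 of the 6 members, Krt4, Krt8 and Krt19, where 48.7% of all tested genes did not overlap.

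The other 3 members overlapped between the P0.5 groups. Krt7 was at 16.0 and 14.0 CPM in the controls and 12.4 and 14.5 CPM in the Kansl1 cKO libraries (log2 fold change -0.16, 95% interval -0.65 to 0.32). Krt18 was at 1.15 and 1.10 CPM against 1.65 and 1.11 CPM (0.32, 95% interval -0.79 to 1.42). Krt13 was at 3.55 and 1.87 CPM against 1.31 and 2.92 CPM (-0.36, 95% interval -1.66 to 0.94), and its difference became 0.13 without P0.5 control replicate 1, the library with the muscle markers. Without that library Krt19 differed by -1.197 (adjusted p = 0.490), Krt4 by -1.11 (adjusted p = 0.584) and Krt8 by -0.46 (adjusted p = 0.617).

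The ratio of Krt8 to Krt18 per kilobase was 3.89 and 3.497 in the P0.5 controls and 1.88 and 2.20 in the Kansl1 cKO libraries, so Krt8 stayed above Krt18 in all 4. That of Krt7 to Krt19 was 2.63 and 2.38 against 5.59 and 4.82, and that of Krt4 to Krt13 was 0.413 and 0.589 against 0.253 and 0.254. For each of these 3 pairs the Kansl1 cKO libraries lay on one side of both controls, and each exact permutation test gave p = 0.333, the smallest it can. Among single genes, 48.7% did not overlap between these groups. The ratios rest on few counts per P0.5 library, 10 to 34 for Krt18, 10 to 24 for Krt19 and 8 to 20 for Krt4.

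**Figure D5:**
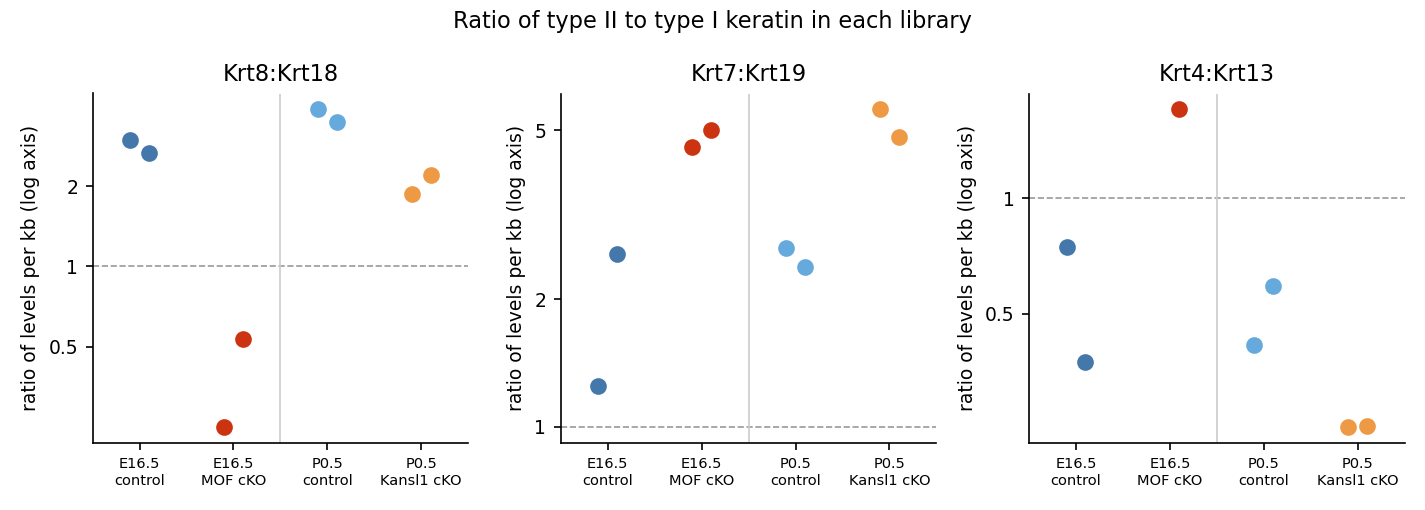
Ratio of the type II to the type I keratin per kilobase in each library (dots, log axis) for Krt8 to Krt18, Krt7 to Krt19 and Krt4 to Krt13, with a dashed line at equal levels. Krt8 to Krt18 falls from 2.97 and 2.66 in the E16.5 controls to 0.250 and 0.532 in the MOF cKO libraries, and MOF cKO replicate 1 has no dot for Krt4 to Krt13 because its Krt13 count is 0.

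At P0.5 the Merkel cell markers summed to 32.9 to 40.6 CPM in the controls and 21.1 to 33.4 CPM in the Kansl1 cKO libraries. Of 9 markers tested by edgeR, 5 were lower, with a median of -0.35, 0 called and 2 at an unadjusted p under 0.05. DESeq2 tested 13 and called 0. Fibroblast markers, at 1093 to 1751 CPM in the controls and 739 to 926 CPM in the Kansl1 cKO libraries, were lower for 7 of 8, with 0 called by edgeR, 6 at an unadjusted p under 0.05 and 4 called lower by DESeq2. Melanocyte markers went the other way, from 425 and 464 CPM in the controls to 898 and 1011 CPM in the Kansl1 cKO libraries, with 5 of 5 higher, 0 called by edgeR, 5 at an unadjusted p under 0.05 and 3 called higher by DESeq2. Macrophage markers, at 145 to 171 CPM in the controls and 222 to 244 CPM in the Kansl1 cKO libraries, were higher for 7 of 8, with 0 called by either tool and 3 at an unadjusted p under 0.05. The part of these cell types in the values of Krt4 and Krt19 was not tested. In the lists of epithelial genes and keratins 0 genes were called by edgeR in this comparison, 8 had an unadjusted p under 0.05 and DESeq2 called 1, Krt12. Krt12, a keratin best known from the cornea, was the other simple or mucosal keratin with the smallest p, at 9.85 and 4.98 CPM in the controls and 29.8 and 23.9 CPM in the Kansl1 cKO libraries (log2 fold change 1.90, adjusted p = 0.176).

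Whether the MOF effect differs from the Kansl1 effect was tested as 1 contrast over all 8 libraries. For Krt8 the MOF effect was lower than the Kansl1 effect by 1.94 on the log2 scale (difference -1.94, SE 0.400, 95% interval -2.84 to -1.04, adjusted p = 0.0166, edgeR), which passes a threshold of 0.05 but not of 0.01. It missed 0.05 without E16.5 control replicate 1 (adjusted p = 0.0545), without E16.5 control replicate 2 (adjusted p = 0.0631) and without Kansl1 cKO replicate 1 (adjusted p = 0.0588). DESeq2 gave an adjusted p of 0.00291 for Krt8. For Krt7 the difference was 1.199 (SE 0.380, adjusted p = 0.0652). At the threshold of 0.01 edgeR called 0 of the 6 members and 2.92% of 14565 genes, 2 members (Krt7 and Krt8) had an unadjusted p under 0.05, and DESeq2 called 1 member. The deleted gene, the stage, the isolation and the sequencer differ together here and cannot be told apart.

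Between the controls of both experiments Krt8 and Krt18 were both lower at P0.5. In the fit over all libraries Krt8 was 3.88-fold lower (log2 difference -1.96, SE 0.281, adjusted p = 0.000365) and Krt18 5.07-fold lower (-2.34, SE 0.361, adjusted p = 0.000543). Krt7 differed by 0.70 (adjusted p = 0.0501), Krt13 by 1.71 (adjusted p = 0.120), Krt4 by 1.30 (adjusted p = 0.198) and Krt19 by 0.21 (adjusted p = 0.747). Of the 6 members, 2 were called, where 40.2% of all tested genes were. The groups did not overlap for 5 of the 6, with Krt19 the exception, where 80.5% of all genes did not. Stage, sorting and sequencer cannot be told apart, and this comparison shares the E16.5 control libraries with the MOF comparison. Of 13 Merkel cell markers, 12 were lower at P0.5 and 1 higher, with a median of -0.99 beside -0.13 over all genes. Of 8 macrophage markers 7 were called higher and 1 was lower, and 5 of 5 melanocyte markers were called higher. The part of these cell types in the values of Krt8 and Krt18 was not tested. In the P0.5 controls the levels per kilobase ran from Krt8 at 3.09 ± 0.307 (SD, n = 2) through Krt7 at 2.29 ± 0.204, Krt13 at 1.60 ± 0.690, Krt19 at 0.912 ± 0.0167 and Krt18 at 0.837 ± 0.0203 to Krt4 at 0.756 ± 0.147 CPM per kilobase, and only Krt18 and Krt4 overlapped as neighbours. With the longest transcript as the length, Krt7 was at 3.94 CPM per kilobase and stood above Krt8. In the Kansl1 cKO libraries Krt8 at 2.11 ± 0.364 and Krt7 at 2.08 ± 0.222 CPM per kilobase overlapped, as did Krt13 and Krt18, and Krt19 and Krt4. There too the longest transcript put Krt7 above Krt8, at 3.59 ± 0.382 CPM per kilobase, with no overlap.

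The genes most like each member were the highest ranked of 12523 genes compared, so each r below is among the largest of that many. The ranking used Pearson's r of log2 CPM, centred within each experiment, over 8 libraries that share their depth and group differences. Most like Krt8 were Fam171a1 (r = 0.997), Kifap3, an accessory subunit of the kinesin-2 motor (r = 0.994), and Atxn1l (r = 0.991). Most like Krt7 were Trpv2 (r = 0.986), Atp1b2 (r = 0.980) and Tox4 (r = 0.980). Most like Krt18 was Arid1a (r = 0.983), and most like Krt13, Krt4 and Krt19 were R3hcc1l (r = 0.982), Nmnat3 (r = 0.956) and Sco1 (r = 0.976). Among the members themselves r was -0.743 for Krt8 with Krt18 and 0.886 for Krt4 with Krt19. These coefficients describe 8 libraries in 4 groups and carry no test.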

How the data were processed

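RNA-seq of polyA RNA was measured in 8 libraries, 2 per group, made with a directional kit. The authors aligned reads to mm10 and deposited raw read counts per gene made with HTSeq. Their methods name HISAT2 as the aligner and the submitters' processing notes name TopHat2. Strand setting and annotation are not given in the sources used here. Rows that name no gene, 21.1% to 26.0% of the reads listed, were left out. The samples were grouped by their labelled stage and genotype.

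The counts were tested with edgeR 4.0.16 in R 4.3.3 (filterByExpr, TMM factors, quasi-likelihood test, Benjamini-Hochberg adjustment over all tested genes), each experiment alone, and called at an adjusted p of at most 0.01 and a fold change over 1.5, the study's thresholds. DESeq2 1.42.0, other scalings, filters and fits, and leaving out each library were tried as alternatives. CPM values use TMM library sizes within each experiment. Levels per kilobase use TMM over all libraries and the union of exons in GENCODE vM21, which may not be the annotation of the counts. Pearson's r was computed on log2(CPM + 0.5). Intervals are 95% intervals of the fit, and floors of 3 counts cover counting error only. At these depths 1 count was worth 0.0326 to 0.115 CPM.

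The members and gene lists were chosen with earlier results of these data known. Genes named are the members, up to 5 tested genes per list with the smallest p in the MOF comparison and 2 in the Kansl1 comparison, the nearest tested keratins, the 3 genes most like each member and the targeted genes. Of the 3 genes most like Krt18, Krt13, Krt4 and Krt19 only the first is printed.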

Additional observations from a re-analysis of the deposited data

How the results depend on the processing

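Krt8 stayed called lower in the MOF cKO libraries under all 14 alternatives to its fit, with a log2 fold change of -2.77 to -2.45 over the other settings and of -2.89 to -2.17 with 1 library left out. Krt7 was called higher under DESeq2 (1.09), the likelihood ratio test (1.07), every gene with at least 1 count (1.06), the replicate block (1.05, adjusted p = 7.67e-06) and an adjusted p of 0.05 (1.07), each of which called 2 members, and it ranged from 0.70 to 1.35 with 1 library left out, when 1 to 2 members were called. It was not called with the other scalings, and with library size alone its adjusted p was 0.0593. The cause was not tested.

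The replicate numbers of the labels were tried as a replicate block. Same-numbered libraries deviated together in the MOF comparison (r = 0.251 across genes) and apart in the Kansl1 comparison (r = -0.256), and though the study describes pairs with littermate controls, no source used here ties a number to a litter, so the numbers were not taken to pair the libraries. The block moved the MOF calls from 1395 higher and 1338 lower to 1903 and 2263 and the Merkel cell markers called lower from 1 to 7, and left 1 higher and 0 lower for the MOF effect minus the Kansl1 effect, where the main counts were 256 and 170. Crossing the numbers in the Kansl1 comparison, chosen after seeing the data, gave 0 genes higher and 1 lower. No paired analysis was possible for P0.5 control against E16.5 control because the animals differ.

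Genes called higher in the MOF comparison were 769 with library size alone, and genes called lower were 2743 with library size alone, 2139 by the likelihood ratio test, 2197 with every gene with at least 1 count and 2296 at an adjusted p of 0.05. Over all genes, library size alone shifted the median from -0.02 to -0.32, and Krt18 was then at 0.12. In the Kansl1 comparison, where the main fit called 0, the counts higher and lower were 35 and 55 by DESeq2, 71 and 114 by the likelihood ratio test, and 73 and 117 with every gene with at least 1 count, with 1 lower with library size alone. With 1 library left out they ranged from 0 to 76 higher and from 4 to 197 lower, highest without Kansl1 cKO replicate 2 (76 and 197), then 22 and 64 without Kansl1 cKO replicate 1.

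For the MOF effect minus the Kansl1 effect the counts were 940 and 492 by DESeq2, 909 and 801 by the likelihood ratio test, 1112 and 539 with every gene with at least 1 count and 1026 and 985 at an adjusted p of 0.05, and ranged from 61 to 288 and from 12 to 135 with 1 library left out. Krt8 was called there by DESeq2 (-1.84), the likelihood ratio test (-1.94), every gene with at least 1 count (-1.82) and an adjusted p of 0.05 (-1.94), which made 1 member, and with every gene with at least 1 count Krt7 (1.33) made it 2. In P0.5 control against E16.5 control, 1543 to 2953 genes were lower with 1 library left out, and Krt7 was called with every gene with at least 1 count (0.80).

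Differences that did not pass the test changed sign for Krt4 in the MOF comparison without E16.5 control replicate 1 (1.08, with -1.07 at the other end of the leave-one-out range). They did so for Krt13 without P0.5 control replicate 1 (0.13) or Kansl1 cKO replicate 1 (0.10, lowest -1.02), and for Krt18 without Kansl1 cKO replicate 1 (-0.053, highest 0.56). For the MOF effect minus the Kansl1 effect Krt18 changed sign with library size alone (-0.16), without MOF cKO replicate 1 (-0.12) and without Kansl1 cKO replicate 2 (-0.17, highest 0.41), and for stage Krt19 with library size alone (-0.13). The ratio of Krt8 to Krt18 ranged from -3.50 to -2.40 on the log2 scale at E16.5 with 1 library left out.

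Depth limits Krt4, Krt13 and Krt19, with at most 57 counts in a library. Krt8 and Krt18 are limited less at E16.5 than at P0.5, where Krt18 had 10 to 34 counts.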
